A study of Sus scrofa with 8 samples.

Results

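The endothelial, lymphatic and endothelin genes followed here in pig backfat were AQP1, PECAM1, CDH5, VWF, KDR, LYVE1, VEGFA, ECE1, EDN1 and EDNRB. They are 10 of the 6765 genes that the array's annotation names by a single symbol, and they were measured by 23 probe sets, each a group of short probes whose brightness is summarised as 1 signal. All probe sets annotated with exactly 1 symbol that is one of these genes were taken. The tissue came from 4 samples of KNP pigs aged 7 months and 4 samples of YS pigs aged 6 months, all from backfat in the middle of the body and from pigs kept under the same conditions, each hybridised to 1 Affymetrix GeneChip Porcine Genome Array. One label spells YS as Yorkshire; KNP is not spelled out, and neither the sex nor whether each sample was a separate animal is stated. Breed and age cannot be told apart, because every KNP sample was from the older pigs, and a p-value here measures only how far these samples spread, which may be technical.

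Endothelial cells line all vessels and hold together through junction proteins such as VE-cadherin and PECAM-1. In fat they bring oxygen, hormones and lipid to the adipocytes, and VEGF-A released by adipocytes and stromal cells acts on the receptor KDR to keep them alive and growing. Endothelin-1 is a strong constrictor of vessels: it is made as a longer inactive precursor, cut to its active form by the enzyme ECE1, and read by the A and B receptors. Lymph vessels carry their own markers, among them the hyaluronan receptor LYVE1.

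Signals are given as deposited, on a linear scale, and differences as KNP minus YS on the log2(signal + 16) scale. Background was judged per array from 23 controls that match no pig RNA, and their 95th percentile, called the no-target level, ran from 76.1 to 115.4 in signal on KNP arrays and from 40.6 to 160.8 on YS arrays. Of the 23 probe sets, 9 lay above it on all 8 arrays, 9 on some arrays and 5 on none. The 9 belonged to 7 of the genes, AQP1, PECAM1, CDH5, VWF, LYVE1, VEGFA and EDN1. With 4 arrays per breed, precision is limited by the number of arrays. Of 8 adipocyte markers 6 were measured, which here and for the other marker sets means tested after a filter on low values. These 6 were above the level on all 8 arrays. Their signals summed to between 80020 and 110100 in KNP and between 74060 and 97380 in YS. On single arrays, the control probe sets for actin, elongation factor and GAPDH gave a 3' over 5' log2 signal difference of 8.54 on KNP replicate 1, 5.88 on KNP replicate 2 and 4.40 on YS replicate 4, and between 2.12 and 3.17 on the other 5. The 7 measured of 15 skeletal muscle markers summed to 55670 on KNP replicate 2, and to between 257.6 and 681.8 on the other 7 arrays.

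None of the 10 genes was separated between the breeds by the test. The 16 member probe sets that passed the filter on low values were compared within a limma fit over 17999 probe sets, in which 0 (0%) passed an adjusted p of 0.05, and 0 of the 16 passed. At an unadjusted p under 0.05 there was 1 member probe set, against 511 (2.84%) of all those tested. This was the one for ECE1, and it was higher in KNP, as were 268 (1.49%) of all probe sets at that p. The ECE1 probe set passed the filter only through its KNP arrays, so its p is given as a description. Of the 16, 8 had a higher and 8 a lower mean in KNP, with a median difference of 0.08 against -0.0010 over all probe sets tested. In whole tissue, fewer endothelial cells and less RNA per cell cannot be told apart as sources of a lower signal. The 7 probe sets that did not pass the filter were both of KDR and 1 each of VWF, LYVE1, VEGFA, ECE1 and EDNRB.

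**Figure D1:**
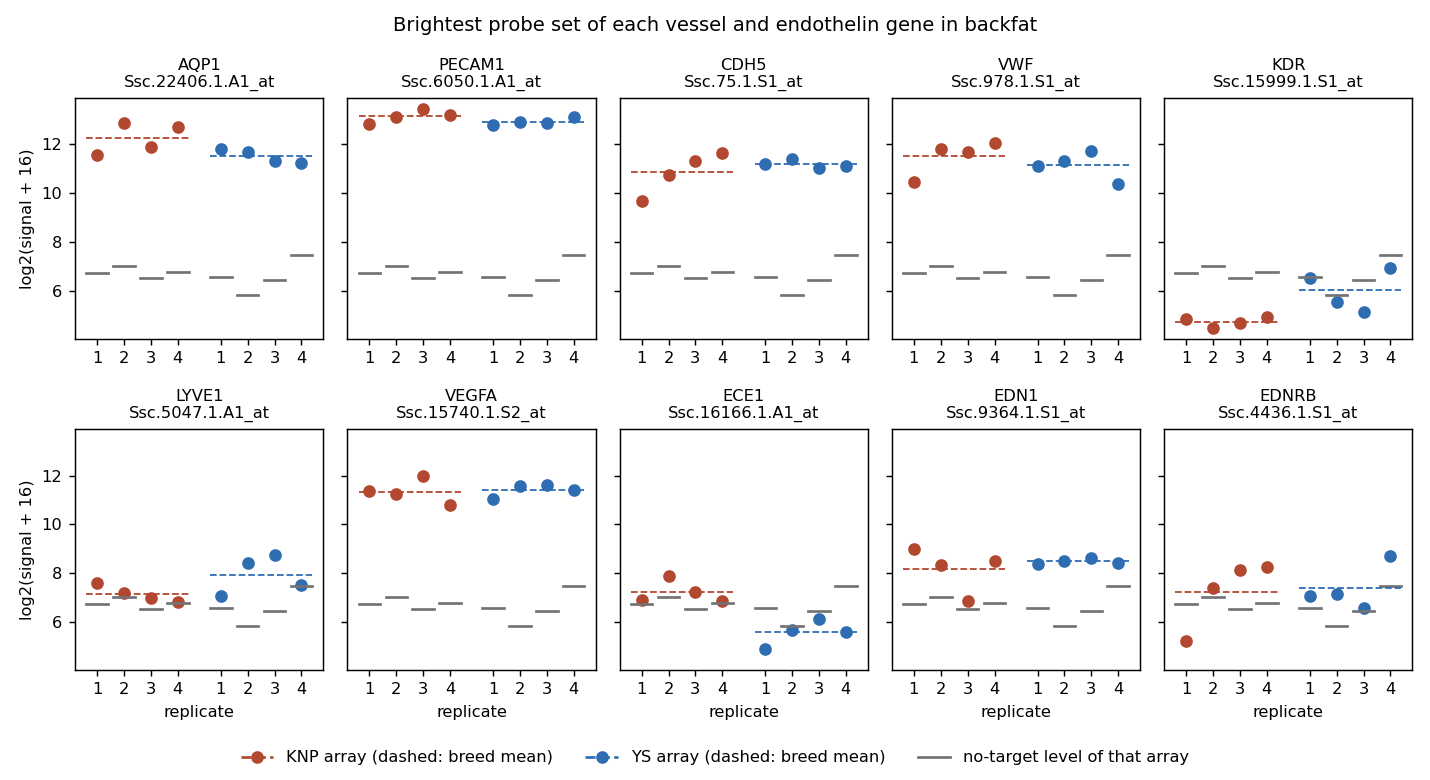
Each panel shows log2(signal + 16) of the brightest probe set of a gene on the 4 KNP arrays (left) and the 4 YS arrays (right); dashed lines are breed means and grey bars the no-target level of that array. ECE1 lies above the grey bar on 4 KNP arrays and 0 YS arrays, and KDR lies below it on all 8 arrays.

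ECE1, the metalloprotease that cuts the endothelin precursor, had the widest separation. Its brighter probe set gave signals of 103.7, 220.2, 135.7 and 100.8 on KNP replicates 1 to 4, against 13.7, 35.5, 53.6 and 32.7 on YS replicates 1 to 4. All KNP arrays lay above all YS arrays, as they did for 198 probe sets (1.1% of those tested). The KNP signals were only just above the no-target level on replicates 1 and 4, where that level was 89.6 and 93.3, and 0 YS arrays were above theirs. The YS level is therefore only bounded from above. Set against the no-target level of each YS array, the KNP mean was 1.57-fold higher, and a higher background level would give a smaller fold. On YS replicate 4 the no-target level was 160.8, above the signals of KNP replicates 1, 3 and 4. As measured, the log2 level averaged 7.23 ± 0.47 in the 4 KNP samples and 5.58 ± 0.51 in the 4 YS samples (SD), with a difference of 1.65 ± 0.35 (SE; adjusted p = 1 in limma). Against the single highest no-target control of each array, which was 141.9 on KNP replicate 3 and 101.6 on KNP replicate 4, these 2 arrays no longer lay above background. Leaving out 1 array at a time kept the difference between 1.42 and 1.83. The other ECE1 probe set was above the no-target level on 0 arrays, at 4.49 to 62.7 in KNP and 4.37 to 10.2 in YS. A LYVE1 probe set averaging 5.80 in KNP and 6.27 in YS did not pass the filter on low values. At its YS mean of 5.58 the ECE1 probe set would not have passed either. It entered the test only through its KNP arrays. ECE1 was also known from earlier results of these data as one of the genes with the smallest p. Its p, interval and place at the top are a description.

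EDN1 encodes the precursor of endothelin-1 itself. Its single probe set read 488.2, 308.6, 100.0 and 344.1 on KNP replicates 1 to 4, against 315.4, 350.0, 374.8 and 326.8 on YS replicates 1 to 4. The YS arrays were close together, whereas KNP replicate 1 was the highest of all 8 arrays and KNP replicate 3 the lowest. The difference was -0.31 ± 0.42 (SE, 95% interval -1.27 to 0.65; adjusted p = 1 in limma), and it was 0.12 without KNP replicate 3, the lowest array. It was -0.58 without KNP replicate 1, -0.57 with the 3' over 5' control difference as a covariate, and -0.82 without the 3 arrays where that difference was largest. Removing those 3 arrays leaves only KNP replicates 3 and 4 against YS replicates 1 to 3. EDNRB encodes the endothelin B receptor, which on endothelial cells triggers nitric oxide release and clears endothelin-1. Its brighter probe set read 21.3, 151.7, 261.7 and 285.8 in KNP and 119.2, 127.6, 79.4 and 398.5 in YS. KNP replicate 1 lay below the no-target level of that array, 89.6, and YS replicate 3 only just above its level of 70.5. Both the lowest and the second highest value were KNP arrays, and the difference was -0.14 ± 0.71 (SE; adjusted p = 1 in limma). The lowest was KNP replicate 1, the array with the largest 3' over 5' difference of the controls, and without it the difference was 0.54, against 0.30 without YS replicate 4, the highest. The other EDNRB probe set passed the no-target level on YS replicate 2, and on 0 of the other 7 arrays.

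PECAM1, the CD31 adhesion protein of endothelial junctions, was bright on every array. Its brighter probe set read 7359, 8995, 11210 and 9445 on KNP replicates 1 to 4, against 7054, 7638, 7554 and 8892 on YS replicates 1 to 4. KNP replicates 2 to 4 lay above all YS arrays and KNP replicate 1 among them, and the difference was 0.24 ± 0.23 (SE, 95% interval -0.29 to 0.77; adjusted p = 1 in limma). It was 0.14 without KNP replicate 3, 0.47 without the 3 arrays of largest control difference, and 0.055 as the mean of both probe sets. The dimmer PECAM1 probe set read 766.6, 1462, 4891 and 4172 in KNP and 2663, 2367, 2656 and 1972 in YS. Here the KNP arrays fell on both sides of all YS arrays, 2 below and 2 above, and the mean difference was -0.13 ± 0.56 (SE; adjusted p = 1 in limma).

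CDH5 is VE-cadherin, the adhesion protein that seals the junctions between endothelial cells. The brighter of its probe sets read 809.5, 1707, 2512 and 3213 on KNP replicates 1 to 4, against 2327, 2673, 2087 and 2211 on YS replicates 1 to 4. KNP replicates 1 and 2 were below every YS array and KNP replicate 4 above every one, so that the KNP values enclosed the YS values. The log2 SD was 0.86 in KNP and 0.15 in YS, and the difference was -0.34 ± 0.41 (SE; adjusted p = 1 in limma). The dimmer CDH5 probe set spanned a wider range, at 17.6, 89.8, 381.3 and 636.6 in KNP and 262.6, 233.5, 200.1 and 116.4 in YS. For it KNP replicates 1 and 2 were below every YS array and KNP replicates 3 and 4 above every one. Of the 4 arrays of each breed, 2 in KNP and 3 in YS were above the no-target level.

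For both junction genes the distance between the pair of probe sets followed the 3' over 5' signal difference of the control probe sets. For PECAM1 the log2 gap was 3.24, 2.61, 1.19 and 1.18 on KNP replicates 1 to 4, against 1.40, 1.68, 1.5 and 2.16 on YS replicates 1 to 4. The order of the 8 arrays by this gap was the same as their order by the control difference. For CDH5 the gap was 4.62, 4.03, 2.67 and 2.31 in KNP and 3.07, 3.43, 3.28 and 4.07 in YS, the same order but for KNP replicate 2 and YS replicate 4 changing places. On the arrays with the largest CDH5 gaps, KNP replicates 1 and 2 and YS replicate 4, the dimmer CDH5 probe set lay below the no-target level. The gap between the 2 bright VEGFA probe sets followed the control difference only in part. It was largest on YS replicate 3, at 0.86, which ranked 5 of 8 by control difference. It was smallest on KNP replicate 4, at -0.44, where the control difference was also smallest. Positions of the probe sets along the transcripts are not given in the sources used here. With the control difference as a covariate the breed difference of CDH5 became 0.01 and that of the dimmer PECAM1 probe set 0.41, and without KNP replicate 1 they were 0.05 and 0.37, where the fit of all 8 arrays gave -0.34 and -0.13. Without the 3 arrays of largest control difference they were 0.27 and 0.82, from KNP replicates 3 and 4 and YS replicates 1 to 3 alone.

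**Figure D2:**
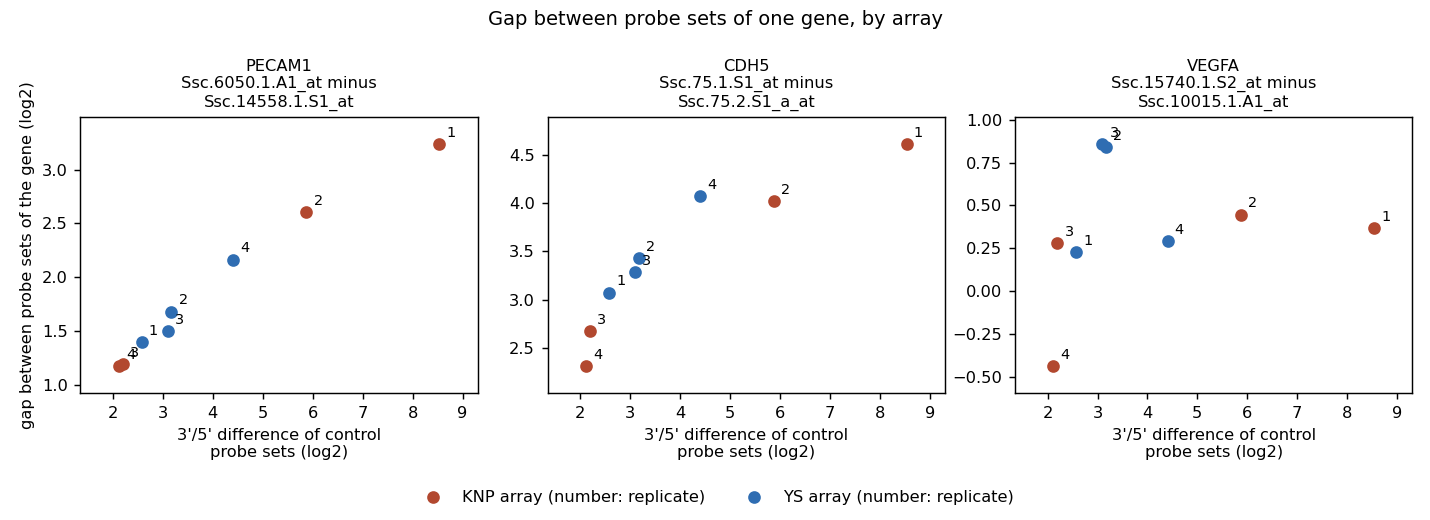
For PECAM1, CDH5 and VEGFA, the vertical axis gives the log2 signal of the brighter minus that of the dimmer probe set on each array, and the horizontal axis the 3' over 5' log2 difference of the actin, elongation factor and GAPDH controls; numbers are replicates. The PECAM1 gap spans 1.18 to 3.24 in the same order as the control difference, and the VEGFA gap follows it only in part.

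VWF encodes von Willebrand factor, the clotting protein stored in endothelial cells and platelets. Its bright probe set read 1394, 3611, 3257 and 4262 on KNP replicates 1 to 4, against 2198, 2533, 3377 and 1321 on YS replicates 1 to 4. The 2 low arrays, KNP replicate 1 and YS replicate 4, are among the 3 with the largest control difference, and 1 belongs to each breed. KNP replicate 2, also among these 3 with a control difference of 5.88, read 3611, above every YS array. Whether the low VWF signals are tied to the controls was not tested. The difference was 0.37 ± 0.42 (SE, 95% interval -0.58 to 1.32; adjusted p = 1 in limma), and without 1 array it was 0.72 (KNP replicate 1), 0.19 (KNP replicate 4), 0.57 (YS replicate 3) or 0.12 (YS replicate 4). It was 0.66 with the control difference as a covariate and 0.11 as the mean of the probe sets. A second VWF probe set read 19.5 to 175.6 in KNP and 59.6 to 111.4 in YS, with a difference of -0.15 ± 0.55 (SE), and the last was above the no-target level on 0 arrays. The 2 measured of 4 platelet markers summed to between 327.4 and 565.0 in KNP and between 210.9 and 710.0 in YS, and their part in the VWF signal was not tested.

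AQP1, the water channel of capillary endothelium and red blood cells, had the largest excess in KNP among the genes above background on all 8 arrays. Its brighter probe set read 3030, 7503, 3762 and 6647 on KNP replicates 1 to 4, against 3575, 3316, 2526 and 2431 on YS replicates 1 to 4. KNP replicates 2 and 4 were well above the rest, KNP replicate 3 just above the highest YS array, and KNP replicate 1 within the YS range. The KNP mean was 1.67-fold the YS mean, a log2 difference of 0.74 ± 0.35 (SE, 95% interval -0.04 to 1.52; adjusted p = 1 in limma), and every array left out in turn kept it positive, between 0.53 and 0.97. One of the high arrays, KNP replicate 2, is the one with skeletal muscle markers; without it the difference was 0.53. The other, KNP replicate 4, had a muscle marker sum of 257.6, and the part of muscle in the AQP1 signal was not tested. The 3 measured of 6 red blood cell markers summed to between 836.6 and 1343 in KNP and between 976.2 and 1195 in YS, with the highest sum on KNP replicate 4, and their part in the AQP1 signal was not tested. The dimmer AQP1 probe set was above the no-target level on 2 KNP and 3 YS arrays, at 0.42 ± 0.67 (SE).

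**Figure D3:**
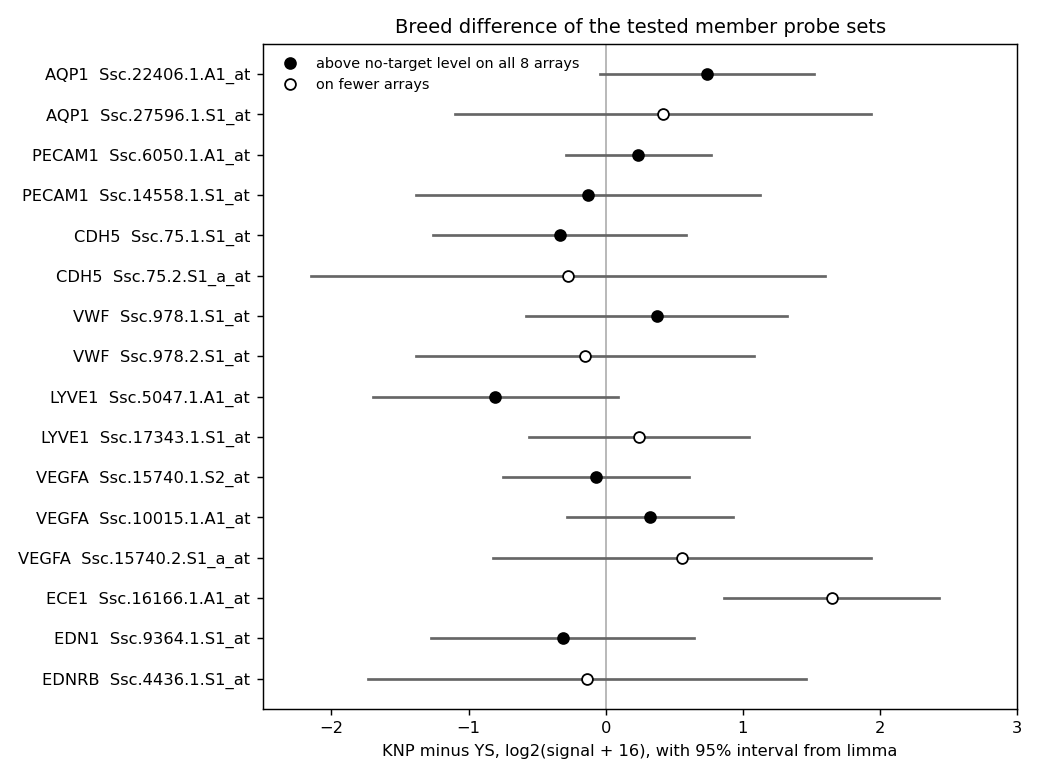
Points give the KNP minus YS difference in log2(signal + 16) for the 16 tested member probe sets and lines the 95% interval from limma; filled points lay above the no-target level on all 8 arrays. The interval of ECE1, from 0.86 to 2.43, is the one that does not hold 0. Its YS values lay below the no-target level on all 4 arrays, and its fold set against that level was 1.57. ECE1 passed the filter on low values only through its KNP arrays.

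VEGFA, the main growth factor for endothelial cells, was measured by 2 bright probe sets with opposite signs. The brighter one read 2593, 2375, 3989 and 1768 on KNP replicates 1 to 4, against 2108, 3023, 3103 and 2669 on YS replicates 1 to 4, a difference of -0.07 ± 0.30 (SE, 95% interval -0.75 to 0.61). The dimmer one read 2004, 1739, 3282 and 2400 in KNP and 1796, 1684, 1705 and 2174 in YS, a difference of 0.32 ± 0.27 (SE, 95% interval -0.28 to 0.92). KNP replicate 3 was the highest array for both, and the breeds overlapped in both; the adjusted p in limma was 1 for each. The opposite signs ended without KNP replicate 4, where the brighter one was at 0.11. The dimmer one was at 0.15 without KNP replicate 3, and at 0.69 without the 3 arrays of largest control difference. Of the remaining VEGFA probe sets, one passed the no-target level on 3 KNP and 2 YS arrays and the other on 0 arrays.

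KDR, the receptor through which VEGF-A acts on endothelial cells, could not be read on these arrays. Its 2 probe sets gave 5.09 to 38.8 in KNP and 4.00 to 106.8 in YS, below the no-target level of the array in every case, and neither passed the filter. The brighter of these gave 6.46 to 14.6 in KNP and 19.0 to 106.8 in YS, all within background, so no order of the breeds is read from it. Since both breeds were below background no fold is given. FLT1, another VEGF receptor, read 249.0, 127.9, 195.3 and 95.7 in KNP and 154.8, 54.4, 69.0 and 257.0 in YS. Its difference was 0.42 ± 0.48 (SE, adjusted p = 1 in limma). FLT1 was above the no-target level on 4 KNP and 3 YS arrays, only just so on KNP replicate 4, where that level was 93.3.

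LYVE1, the hyaluronan receptor of lymphatic endothelium and of a class of tissue macrophages, leaned the other way from AQP1. Its brighter probe set read 177.3, 127.7, 109.4 and 95.8 on KNP replicates 1 to 4, against 118.9, 327.9, 407.8 and 168.2 on YS replicates 1 to 4. YS replicates 2 and 3 stood above all others, and the remaining YS arrays lay within the KNP range. Several signals were only just above the no-target level, which was 115.4 on KNP replicate 2, 93.3 on KNP replicate 4 and 160.8 on YS replicate 4. Against the single highest no-target control of each array, LYVE1 lay above background on 5 of the 8 arrays. The YS mean was 1.75-fold the KNP mean, a difference of -0.80 ± 0.40 (SE, 95% interval -1.70 to 0.09; adjusted p = 1 in limma), and leaving out YS replicate 3 brought it to -0.54. A second LYVE1 probe set, above the no-target level on 2 arrays of each breed, had the opposite sign at 0.24 ± 0.36 (SE), and the mean of both gave -0.28. The chemokine CCL21, which lymphatic endothelium makes, was bright on the same YS arrays: it read 33.5, 19.1, 29.8 and 30.3 in KNP and 42.3, 394.5, 189.7 and 93.0 in YS. It was above the no-target level on 0 KNP and 2 YS arrays, so its KNP level is only bounded from above. Set against the no-target level of each KNP array, the YS mean was 1.4-fold higher. The measured log2 difference of -1.80 ± 0.54 (SE, adjusted p = 1 in limma) includes values within background. CCL21 passed the filter on low values only through its YS arrays, so this difference is a description. The 8 measured of 11 macrophage markers summed to between 3685 and 6743 on the KNP arrays and between 4845 and 12520 on the YS arrays, highest on YS replicate 3 and next, at 7507, on YS replicate 2, and their part in the LYVE1 signal was not tested.

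**Figure D4:**
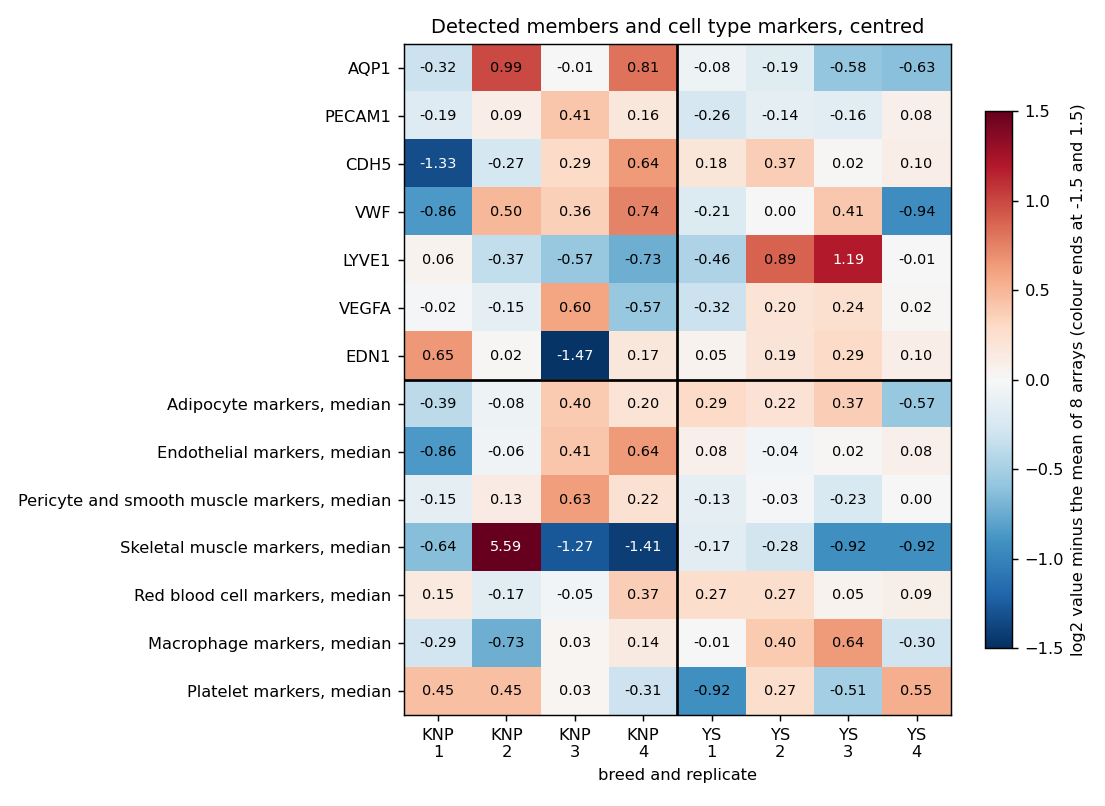
Each cell gives a log2 value minus its mean over the 8 arrays, KNP arrays left and YS arrays right: above the line the 7 genes detected on all arrays, below it the median of the markers of a cell type (the endothelial markers include PECAM1, CDH5 and VWF). CDH5 and VWF share a low value on KNP replicate 1, EDN1 is low on KNP replicate 3, LYVE1 is high on YS replicates 2 and 3, and the muscle markers reach 5.59 on KNP replicate 2.

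The 7 genes did not move as 1 block across arrays. The 7 measured of 8 endothelial markers, which include PECAM1, CDH5 and VWF, summed to signals of 11000 to 20570 in KNP and 14140 to 15380 in YS, lowest on KNP replicate 1. The 8 measured of 12 pericyte and smooth muscle markers summed to 16180 to 28400 in KNP and 14870 to 18520 in YS, and 0 of the markers of either list passed the test. As log2 deviations from each gene's mean over the 8 arrays, KNP replicate 1 had -1.33 for CDH5, -0.86 for VWF, -0.19 for PECAM1 and 0.65 for EDN1. KNP replicate 4 had 0.64 for CDH5, 0.74 for VWF, 0.81 for AQP1 and -0.73 for LYVE1. EDN1 was lowest on KNP replicate 3, at -1.47, where VEGFA and PECAM1 were at their highest.

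In the longer lists around these genes, with each gene read by its brightest probe set, 0 genes passed the test, as did 0 (0%) of the 6006 genes tested. At an unadjusted p under 0.05 there was 1 gene in the lymphatic list, CCL21, 1 in the endothelin list, ECE1, and 0 in each of the other 4 lists, against 141 (2.35%) of all genes tested. CCL21 passed the filter on low values only through its YS arrays, and ECE1 only through its KNP arrays. Whether a list moved as a whole was not tested. Of 25 endothelial genes on the array 23 were tested. Of these, 10 had a higher and 13 a lower mean in KNP, and the median difference was -0.03 against 0.01 over all genes tested. Within this list, the smallest unadjusted p outside the members belonged to CD34, an adhesion sialomucin of capillaries and fat progenitor cells, to SELP, the P-selectin that captures leukocytes, and to ICAM1, their adhesion ligand. CD34 averaged 8.61 ± 0.30 in KNP and 9.15 ± 0.46 in YS (log2, SD, n = 4). SELP averaged 8.18 ± 0.37 in KNP and 7.00 ± 1.52 in YS, where YS replicate 1 read a signal of 12.7 against 144.0 to 322.0 on the other YS arrays. ICAM1 averaged 10.34 ± 0.46 in KNP and 10.02 ± 0.20 in YS.

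Of 14 genes of VEGF and angiopoietin signalling on the array 12 were tested. Of these, 5 had a higher and 7 a lower mean in KNP and 0 passed, with a median of -0.02. VEGFB, a VEGF relative that acts through FLT1, averaged 12.05 ± 0.25 in KNP and 11.57 ± 0.40 in YS. ANGPT2, which loosens vessels by opposing angiopoietin 1 at the receptor TEK, averaged 8.90 ± 0.41 in KNP and 9.28 ± 0.25 in YS. The lymphatic list had 4 genes on the array and only 3 tested, LYVE1, CCL21 and the membrane mucin PDPN. These 3 all had a lower mean in KNP, with a median of -0.80, and 0 passed. The remaining gene did not pass the filter on low values. The median was -0.63 with no filter and -0.45 with the probe sets of a gene averaged. PDPN read 942.2, 993.3, 1456 and 1075 in KNP and 991.1, 1689, 1460 and 2133 in YS, with overlap between the breeds.

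In the endothelin system 4 genes were measured, 1 higher and 3 lower in KNP, with 0 past the test. Beside ECE1, EDN1 and EDNRB this was EDNRA, the A receptor of smooth muscle, at 317.6, 89.0, 155.4 and 106.2 in KNP and 65.0, 146.3, 110.9 and 458.4 in YS. Its difference was -0.03 ± 0.57 (SE), with the highest array in YS replicate 4 and the lowest in YS replicate 1. Of 11 genes of vessel tone on the array 9 were tested. Of these, 4 had a higher and 5 a lower mean in KNP, 0 passed, and the median was -0.02. AGTR1, the receptor for the constrictor angiotensin II, averaged 11.86 ± 0.42 in KNP and 12.40 ± 0.65 in YS. PTGS1, a cyclooxygenase, averaged 8.67 ± 0.25 in KNP and 8.40 ± 0.37 in YS. ACE, which makes angiotensin II, averaged 8.07 ± 0.55 in KNP and 8.36 ± 0.50 in YS. Of 4 aquaporins on the array 3 were tested. Among these, AQP1 and the glycerol-passing AQP3 had a higher mean in KNP, AQP11 differed by -0.01 ± 0.34 (SE), and 0 passed. AQP3 read 1602, 10280, 9531 and 4541 in KNP and 2074, 4061, 4810 and 2839 in YS, and the lowest of all 8 arrays was KNP replicate 1.

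**Figure D5:**
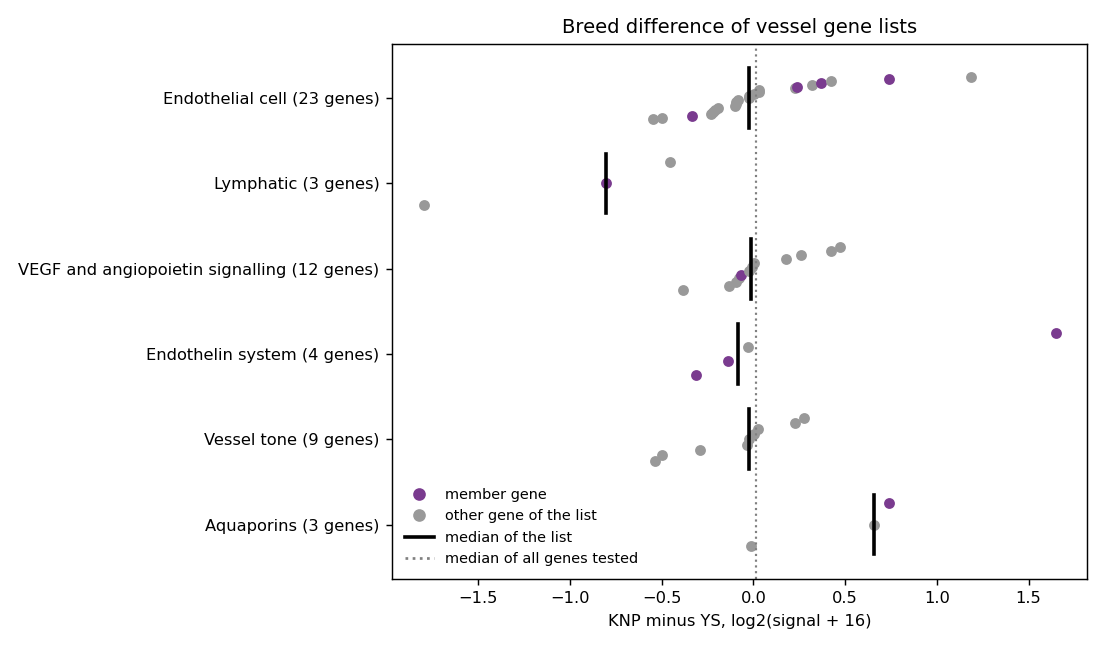
Each point is a gene's KNP minus YS difference in log2(signal + 16), members in purple; black bars are list medians and the dotted line the median of all genes tested. The endothelial median of -0.03 lies beside that line, and the lymphatic list rests on 3 genes.

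As a description of pattern, the genes whose log2 values were most like each detected member over the 8 arrays were ranked by Pearson r among 4519 named genes above the no-target level on all arrays. The closest to CDH5 were LUC7L3 (r = 0.97) and KLF4 (0.97), both lowest on KNP replicate 1. The closest to VWF were GLMP (0.97) and PLEKHJ1 (0.96), both lowest on YS replicate 4. PECAM1 was closest to EFNB2 and ITIH3 (0.94 each), and AQP1 to C9 (0.93) and RAE1 (0.91), both high on KNP replicates 2 and 4. LYVE1 was closest to CD209 (0.89), a receptor of macrophages and dendritic cells that read highest on YS replicate 3, 803.4, and YS replicate 2, 558.1, and to TMEM248 (0.86). EDN1 was closest to SCD, the stearoyl-CoA desaturase (0.97), which read 96880, 60730, 4103 and 37270 in KNP and 58050, 50420, 50850 and 44820 in YS, lowest by far on KNP replicate 3, and to LOC100517502 (0.96). VEGFA was closest to LOC100511937 (0.86) and ZBTB33 (0.85). The 8 points of each r share the same arrays and the same scaling.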

How the data were processed

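The authors deposited linear intensity values for 24123 probe sets, 1 value on each array, already scaled to a mean of 500.1 (2% trimmed at each end), as the values show. The sources used here do not state which algorithm summarised the probes. Per the labels, total RNA was biotin-labelled by the Affymetrix protocol.

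The authors' scaling was kept. After addition of 16 and log2 transformation, 124 controls and the 25% of the others with the lowest mean were left out, and 17999 were fitted with limma 3.58.1 in R 4.3.3 (lmFit, eBayes, two-sided, Benjamini-Hochberg over all, threshold 0.05). The fit was tested on simulated data. Symbols came from the platform annotation; all 10 Entrez identifiers matched RefSeq of Sscrofa11.1. A gene in a list is represented by its brightest probe set. Members and lists were chosen with earlier results of these data known. Named list genes are up to 3 non-members with the smallest p. Alternatives were other filters, scalings, pseudocounts and variance models, array weights, a replicate block, a 3'/5' covariate, averaging the probe sets of a gene, other no-target levels, and arrays left out. No deposited column was unused. Replicate numbers were not treated as pairs in the main fit. Deviations of same-numbered arrays correlated between -0.19 and 0.13, which cannot exclude a pairing.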

Additional observations from a re-analysis of the deposited data

Results flagged for a closer look

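One value stood far from the others of its group. The dim VEGFA probe set that passed the filter read 52.9 to 246.8 in signal on the KNP arrays. YS replicate 3 read a signal of 11.6 against 105.7 to 143.2 on the other YS arrays, a gap of 0.847 of the group's log2 range, above Dixon's 95% critical value for 4 samples. The flagged value lay below the no-target level of that array, 70.5. YS replicate 4, at 105.7, and KNP replicate 2, at 52.9, were also below their levels of 160.8 and 115.4. This was 1 of 32 groups of member values examined, and chance flags about 5% of groups.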

How the results depend on the processing

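In 20 alternative settings, 0 member probe sets and 0 list genes passed the threshold, and over all probe sets 0 passed, the smallest adjusted p being 0.0596 from limma with trend and robust variance. The count at an unadjusted p under 0.05 was 511, and 784 when KNP replicate 1 was left out and 884 when YS replicate 4 was. It was 975 under array weights, 877 with the 3' over 5' control difference as a covariate, and 1516 once the 3 arrays highest in that difference were removed. With the replicate block the count past the threshold was also 0. Of 235 values of 12 member probe sets under alternatives, 215 kept their direction and 20 reversed; the adjusted p of ECE1 ran from 0.504 to 1, its difference from 1.04 with a pseudocount of 64 to 2.09 with a pseudocount of 1, and the probe set was not among those tested with the 50% filter. With array weights, the dimmer PECAM1 probe set was at 0.25, the dimmer CDH5 probe set at 0.24 and EDNRB at 0.59. With the covariate they were at 0.41, 0.56 and 0.33, and the brighter CDH5 probe set at 0.0132. Without the 3 arrays they were at 0.82, 1.05, 1.24 and 0.27, and the endothelial, endothelin and vessel tone medians at 0.27, 0.76 and 0.21. These values rest on KNP replicates 3 and 4 and YS replicates 1 to 3 alone. With 1 array left out, ranges were -0.51 to 0.37 for that PECAM1 probe set, -0.61 to 0.0508 and -0.91 to 0.51 for the CDH5 pair, -0.28 to 0.11 for the brightest VEGFA probe set, -0.58 to 0.12 for EDN1, -0.47 to 0.54 for EDNRB and -0.29 to 0.39 for the endothelin median. Averaged over its probe sets, VEGFA was at 0.27. The cause of these changes was not tested. Probe sets above the no-target level on all 8 arrays numbered 9, 7 by the highest and 13 by the median control. Signals near the no-target level, as for ECE1, KDR, EDNRB and LYVE1, limit what 4 arrays per breed can show.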
